A study of Caenorhabditis elegans with 2 samples.

Results

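The regions described here are candidate binding regions at transfer RNA (tRNA) genes, found in a chromatin immunoprecipitation sequencing (ChIP-seq) experiment on the nuclear hormone receptor NHR-12 of the nematode Caenorhabditis elegans. A region was taken when its summit, the point its caller marked as highest, lay within 250 bp of a gene of biotype tRNA in Ensembl release 115 for WBcel235, the assembly also called ce11. Of the 28574 candidate regions called on both replicates together, 300 met this rule. They were 1.05% of the candidates, while the bases within 250 bp of a nuclear tRNA gene were 0.325% of the 6 chromosomes. The replicates' own lists, of 30000 regions each, held 276 such regions in replicate 1 (0.920%) and 259 in replicate 2 (0.863%).

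All samples came from strain OP318, which carries the allele unc-119(ed3) on chromosome III and the transgene wgIs318, an insertion that targets nhr-12. The immunoprecipitated protein was NHR-12 tagged with enhanced green fluorescent protein (eGFP). Whole mixed-stage embryos of pooled sex formed 1 group of 2 biological replicates, so cell types were not separated, and the labels state neither the promoter of the transgene nor what was separate about the replicates. With 1 group there is no contrast and no test over samples, and intervals given with shares are exact (Clopper-Pearson) 95% intervals that cover counting of regions or genes only. Library depth is unknown, since the lists hold no read counts.

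Transfer RNAs carry amino acids to the ribosome, and tRNA genes are grouped by isotype, the amino acid their product carries. RNA polymerase III transcribes these short genes from promoter elements inside the gene: an A box near its start and a B box farther in, both bound by the factor TFIIIC, which recruits TFIIIB just upstream. Transcription ends at a short run of T after the gene. Animal genomes hold many identical copies of most tRNA genes, some alone, some in clusters, and in C. elegans many lie in introns of protein-coding genes or on the X chromosome.

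The sequences that show the main contrast in these data best are those of the leucine tRNA genes with an intron, because their exons are the same while their signal differs. Among 7 such genes the 84 exon bases were identical, except that F02D10.t3 differed from the others at 1 base. Their introns, of 35 to 38 bases, differed and made every one of the 7 genes a single-copy sequence. The 5 shown are C04A11.t1 (chrX:13665555-13665673, plus strand), C14B9.t2 (chrIII:8109603-8109724, plus strand), ZK822.t1 (chrIV:11928478-11928596, minus strand), F42F12.t1 (chrX:12348007-12348126, minus strand) and F22B7.t1 (chrIII:8639306-8639425, plus strand). All sequences are read 5′ to 3′ from the RefSeq copy of WBcel235, and capitals mark the intron here.
C04A11.t1: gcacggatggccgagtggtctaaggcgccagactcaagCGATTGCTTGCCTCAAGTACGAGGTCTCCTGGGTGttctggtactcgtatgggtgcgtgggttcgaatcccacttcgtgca
C14B9.t2: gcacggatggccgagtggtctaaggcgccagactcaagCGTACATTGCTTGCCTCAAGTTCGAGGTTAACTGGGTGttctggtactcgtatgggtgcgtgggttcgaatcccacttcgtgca
ZK822.t1: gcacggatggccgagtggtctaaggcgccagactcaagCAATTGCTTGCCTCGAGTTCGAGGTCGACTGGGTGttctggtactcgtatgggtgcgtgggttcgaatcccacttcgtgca
F42F12.t1: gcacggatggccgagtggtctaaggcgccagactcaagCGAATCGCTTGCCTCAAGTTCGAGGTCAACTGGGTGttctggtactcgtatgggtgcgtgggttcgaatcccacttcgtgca
F22B7.t1: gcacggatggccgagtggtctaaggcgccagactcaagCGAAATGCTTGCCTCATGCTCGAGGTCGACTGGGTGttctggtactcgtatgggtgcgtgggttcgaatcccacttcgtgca

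The same held for the 3 isoleucine tRNA genes with an intron, whose 74 exon bases were identical and whose introns were 10 or 11 bases long. They are F57F5.t1 (chrV:12002176-12002260), C02B4.t1 (chrX:12661164-12661247) and K11C4.t1 (chrV:6917466-6917550), all on the plus strand, with the intron in capitals.
F57F5.t1: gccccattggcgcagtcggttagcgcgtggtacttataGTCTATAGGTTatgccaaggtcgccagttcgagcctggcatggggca
C02B4.t1: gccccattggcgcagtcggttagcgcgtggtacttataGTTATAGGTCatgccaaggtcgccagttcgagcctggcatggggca
K11C4.t1: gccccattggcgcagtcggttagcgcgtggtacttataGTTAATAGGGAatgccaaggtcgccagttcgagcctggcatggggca

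Most tRNA genes have no intron, and 4 of those with a thresholded peak are shown because they differ in copy number. The histidine gene C06G1.t1 (chrX:16634830-16634901, minus strand) had 11 identical copies in the genome, itself included, and the proline gene F46G11.t2 (chrX:5801211-5801282, minus strand) had 24. The alanine gene F15G9.t1 (chrX:9743589-9743660, plus strand) had 8, and the alanine gene K06A4.t1 (chrV:9503562-9503633, plus strand) had a sequence of its own. Capitals mark the letters searched as an A box, TNGNNNAG lying wholly within the first 25 bases, and as a B box, TTCNANNCC, on the gene's strand.
C06G1.t1: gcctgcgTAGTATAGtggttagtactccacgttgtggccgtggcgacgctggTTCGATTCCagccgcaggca
F46G11.t2: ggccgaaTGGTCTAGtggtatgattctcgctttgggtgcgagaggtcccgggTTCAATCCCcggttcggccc
F15G9.t1: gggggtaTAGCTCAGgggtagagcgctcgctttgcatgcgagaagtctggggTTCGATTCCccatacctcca
K06A4.t1: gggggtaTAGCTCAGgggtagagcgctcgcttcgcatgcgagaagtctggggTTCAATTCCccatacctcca

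Regions at tRNA genes stood higher in the list than candidates at large. Signal is the value the authors' peak caller gave each region against a control, on a scale that is not stated, so it ranks regions within 1 list. It had a median of 13.2 at tRNA genes (quartiles 10.5 and 19.8, range 7.81 to 62.5), against 10.4 over all pooled candidates (quartiles 8.92 and 12.9, range 7.76 to 113). A typical region at a tRNA gene therefore had a larger signal than 76.7% of all candidates. In the top 10% by signal were 109 of the 300 (36.3%, 30.9 to 42.1), where all candidates give 10% by construction. The authors' thresholded peaks were the candidates with the largest signal, from 30.7 up, and 24 of them were regions at tRNA genes. That was 8.0% of the 300 (5.19 to 11.7), against 0.871% of all candidates. Regions next to a peak can touch it, and 29 regions at tRNA genes overlapped a peak by at least 1 bp (9.67%, 6.57 to 13.6), against 1.02% of all candidates.

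Thresholded peaks were deposited for the pooled data alone, so the same number of regions with the largest signal, called the top set here, was taken from each replicate's list. Of the 276 regions at tRNA genes in replicate 1, 23 were in its top set (8.33%, against 0.83% of its regions) and 56 among its best 1000 (20.3%, against 3.33%). Of the 259 in replicate 2, 21 were in its top set (8.11%, against 0.83%) and 46 among its best 1000 (17.8%, against 3.33%). Median signal at tRNA genes was 8.64 in replicate 1 against 6.83 over its whole list, and 7.21 in replicate 2 against 5.71. The lists share no scale, so these values are not compared between them.

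The extra signal lay at and just beside the tRNA gene. Summits inside a tRNA gene had a median of 14.1 (88 regions) and those 1 to 50 bp away 16.3 (96 regions). Medians were 12.6 at 51 to 100 bp (40 regions) and 11.2 at 101 to 250 bp (76 regions). Beyond the rule's limit, at 251 to 500 bp, the median was 10.6 (67 regions), close to the 10.4 of all candidates. All 24 peaks lay within 50 bp, with 15 inside the gene and 9 beside it. In both replicates' lists the bins up to 50 bp likewise had larger medians than every bin beyond 50 bp. The 3 regions nearest to the limit from inside were at K11H3.t1 (signal 8.86), Y92C3A.t2 (246 bp, 11.2) and K11C4.t1 (237 bp, 9.35). Just outside it were T03G6.t1 (254 bp, 9.32), F31B12.t1 (257 bp, 7.80) and E03E2.t2 (258 bp, 13.9).

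**Figure D1:**
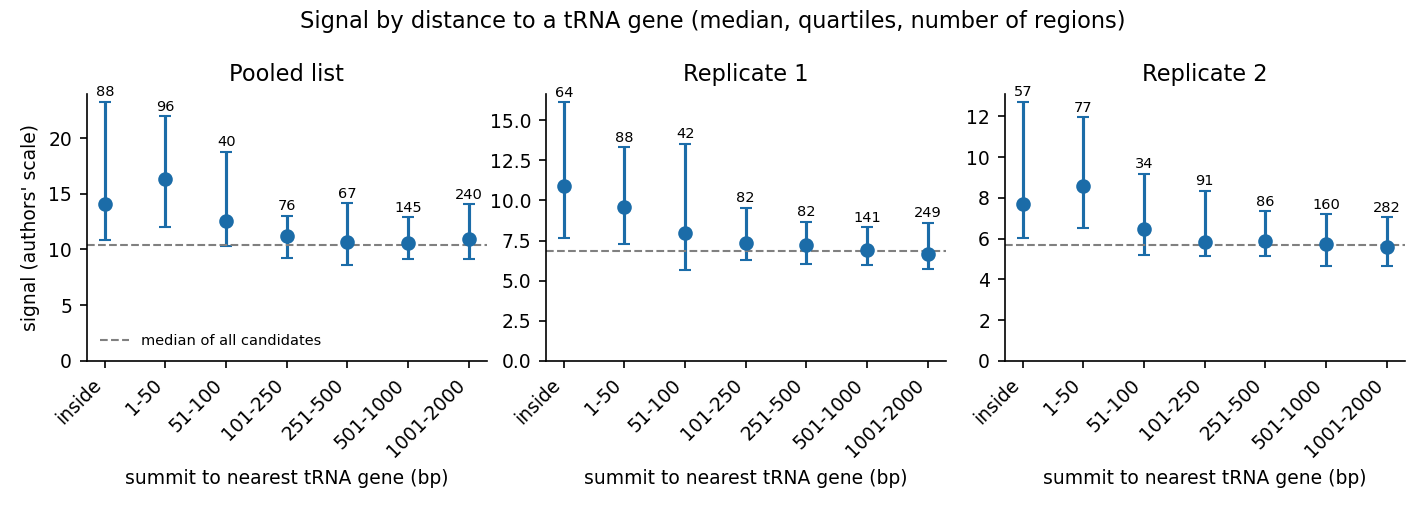
Signal of candidate regions (vertical axis, the authors' scale, different in each panel) by the distance from the summit to the nearest tRNA gene (horizontal axis, bp), in the pooled list and in each replicate's list. Points are medians, bars run between the quartiles, numbers are regions, and the dashed line is the median of all candidates of that list. In the pooled list the medians were 14.1 inside the gene and 16.3 at 1 to 50 bp, against 10.6 at 251 to 500 bp.

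Along the strand of the tRNA gene, most of the strongest regions lay inside the gene or upstream of it. Upstream within 50 bp were 59 summits, with a median signal of 18.6 and 8 peaks. Inside the gene, 15 of 88 regions were peaks, and 1 of 37 was a peak within 50 bp downstream: the asparagine gene F41D9.t3, whose summit lay 29 bp past the gene. Pooled medians were 14.1 inside and 14.5 within 50 bp downstream. Medians upstream within 50 bp, inside and downstream within 50 bp were 9.34, 10.9 and 9.61 in replicate 1. They were 8.68, 7.72 and 8.57 in replicate 2, so the upstream median was not the largest in both replicates. In the top sets, replicate 1 had 8 of 49 upstream within 50 bp, 9 of 64 inside and 1 of 39 downstream within 50 bp. Replicate 2 had 7 of 50, 11 of 57 and 0 of 27. Farther than 50 bp, replicate 1 had 2 upstream and 3 downstream, and replicate 2 had 2 and 1. The order of the upstream and inside shares was not the same in both replicates, and a summit was the middle of its region in all but 3 pooled regions, so single positions are coarse.

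**Figure D2:**
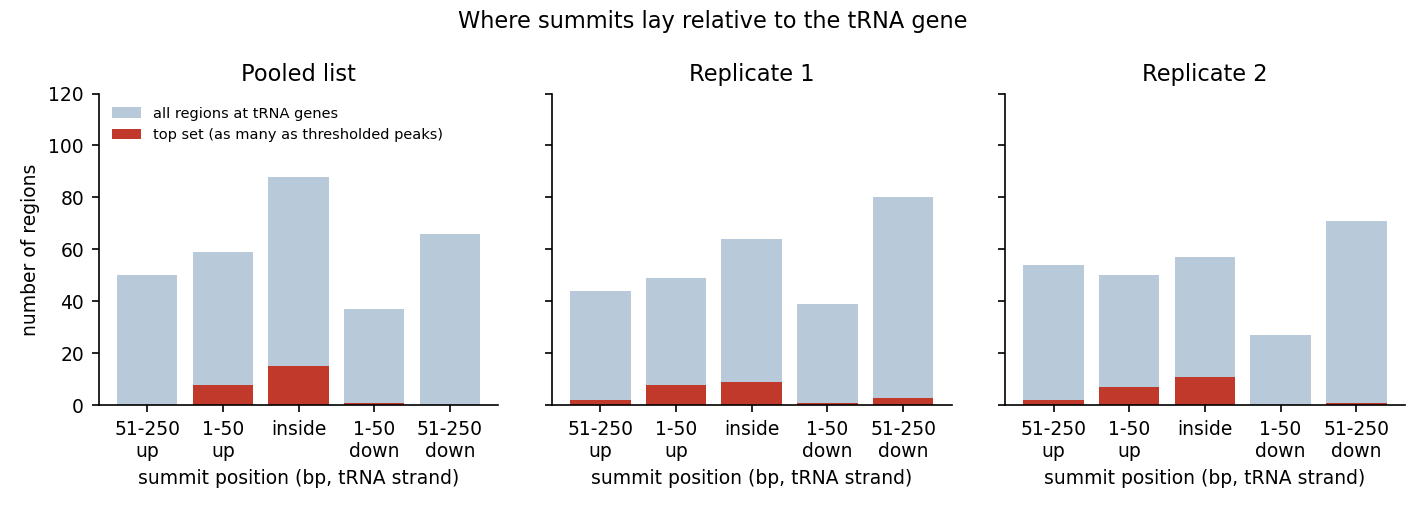
Number of regions at tRNA genes (vertical axis) by where the summit lay along the tRNA strand (horizontal axis, bp up- or downstream), in each list. Pale bars count all regions and red bars those in the top set of that list, which in the pooled list is the thresholded peaks. In the pooled list red bars stood at 8 upstream within 50 bp, 15 inside and 1 downstream within 50 bp.

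The region with the largest signal lay on the intergenic leucine gene C04A11.t1 (chrX:13665387-13665742), with a signal of 62.5 in the pooled list. Its signal was 33.9 in replicate 1 and 28.6 in replicate 2, and it ranked 38 and 32 in their lists. Judged by its worse rank it came first of all 300, tied with a neighbouring region at the same gene (signal 23.3) that the same replicate candidates overlapped. The histidine gene C06G1.t1 had a pooled signal of 54.1, with 30.7 in replicate 1 (rank 58) and 23.3 in replicate 2 (rank 63). The isoleucine gene F57F5.t1 had 53.6, with 25.7 in replicate 1 (rank 96) and 28.8 in replicate 2 (rank 29). The glutamate gene C28G1.t1, which overlaps an exon of C28G1.2, had 44.3 and ranked 97 in both replicates. These 4 genes were high in both replicates and had the best worse ranks.

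Several strong regions ranked far better in 1 replicate than in the other. The asparagine gene F41D9.t3, in an intron of the sulfate permease family gene sulp-3, had a pooled signal of 59.3 and ranked 14 in replicate 1 and 147 in replicate 2. Its region was still in the top set of both replicates. The aspartate gene F38G1.t2, in an intron of egl-17, which encodes a fibroblast growth factor, had 46.5 and ranked 20 in replicate 1 and 1877 in replicate 2; paired ranks from here on keep that order. The lysine gene W03G11.t1 had 45.4 and ranked 57 and 4198, which is the largest worse rank among the peaks. The arginine gene F56F3.t1 had 39.6 with ranks 61 and 1989, and the alanine gene K06A4.t1, in an intron of the SWEET sugar transporter gene swt-5, had 33.8 with ranks 103 and 1451. In these 5 the better rank was in replicate 1. The opposite order occurred at the glutamine gene Y4C6B.t1 (31.9, ranks 1495 and 331) and the leucine gene W02H3.t1 (31.2, ranks 1031 and 125). How far ranks differed at peaks away from tRNA genes was not counted, so such differences are not shown to be particular to tRNA genes.

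Further peaks lay at genes of several isotypes. The cysteine gene C37A2.t1, in an intron of the cyclin E gene cye-1, had a signal of 49.9 (ranks 37 and 154), and the glycine gene F17H10.t1, in an intron of the sorting nexin gene snx-17, had 42.2 (76 and 369). A leucine gene without an intron, C04A2.t1, had a peak too (39.9, ranks 125 and 277). Isoleucine genes without an intron were C42D8.t1 (40.5, ranks 151 and 224) and T21B4.t1, in an intron of the collagen gene col-85 (35.5, ranks 358 and 101). A glutamate gene listed as rte-1 had 38.5 (526 and 87). The proline gene F46G11.t2 had 34.9 (262 and 163), and its region also lay within 250 bp of the identical gene F46G11.t1. The arginine gene F29C4.t1, in an intron of the collagen gene col-99, had 34.9 (274 and 240). F15G9.t1, in an intron of the hemicentin gene him-4, had 34.2 (286 and 253), with another alanine gene, F15G9.t2, in the same window. The threonine genes ZK563.t1 (33.6, ranks 194 and 565) and R01H5.t1 (31.4, ranks 854 and 416) came next. The tryptophan gene sup-5, known for amber suppressor mutations that let its tRNA read a stop codon, had 33.2 (273 and 321) and lies in an intron of the flightless gene fli-1.

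A candidate of replicate 1 overlapped 235 of the 300 pooled regions at tRNA genes (78.3%, against 64.9% of all pooled candidates), and one of replicate 2 overlapped 218 (72.7%, against 58.9%). Both did at 167 (55.7%, 49.8 to 61.4), against 32.9%. Both overlapping candidates were within the best 1000 of their lists at 29 (9.67%, 6.57 to 13.6), against 1.1% of all pooled candidates. Pooled signal draws on both replicates, so overlap with each is partly built in. Counted from the replicates' own lists alone, 272 tRNA genes had a candidate in replicate 1 and 259 in replicate 2, and 158 were shared (58.1% of those of replicate 1 and 61.0% of those of replicate 2). Among the best 1000 regions the genes were 63 and 51, with 28 shared (44.4% and 54.9%). In the top sets they were 25 and 23, with 7 shared (28.0% and 30.4%). Of the 24 peaks, 7 were in the top sets of both replicates, 4 in neither, and 6 had a worse rank beyond 1000. These counts by gene and by peak were not made for other genes or for all peaks. They therefore do not show whether agreement at tRNA genes differed from that of the lists at large.

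**Figure D3:**
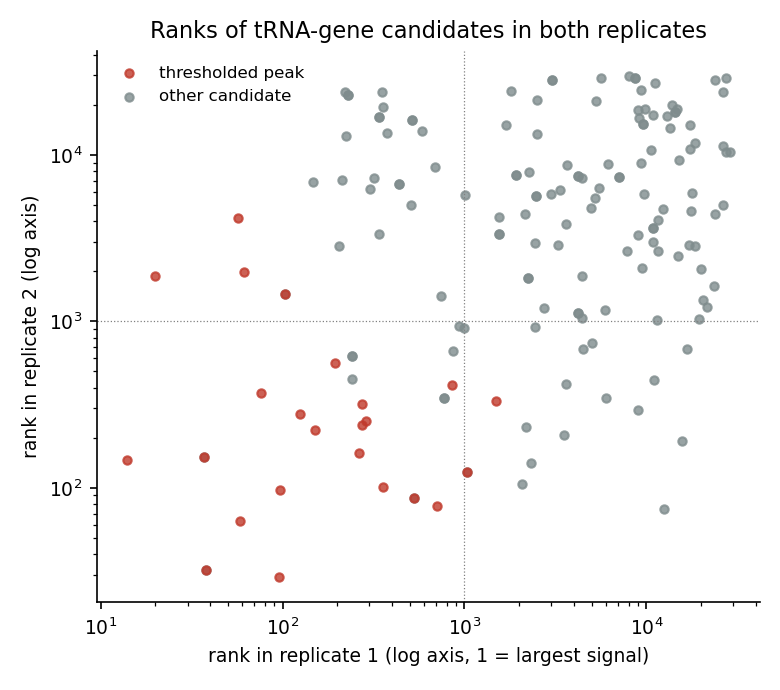
Rank by signal in replicate 1 (horizontal) and replicate 2 (vertical), both log axes with 1 the largest signal, for the 167 regions at tRNA genes that a candidate of both replicates overlapped. Red points are thresholded peaks, grey points other candidates, and dotted lines mark rank 1000. Peaks spread from ranks 38 and 32 at C04A11.t1 to ranks 57 and 4198 at W03G11.t1.

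Counted by gene, a candidate lay within 250 bp of 296 of the 612 nuclear tRNA genes (48.4%, 44.3 to 52.4) and within 50 bp of 185 (30.2%). A peak lay within 250 bp of 26 (4.25%, 2.79 to 6.16). A candidate in all 3 lists was found at 152 genes, and none in any list at 222. No share of other genes or positions was taken by the same rule. These counts by gene therefore do not show whether tRNA genes differed from other places. The 22 mitochondrial tRNA genes had none, since the lists held no mitochondrial region. The 300 regions were nearest to 271 genes, of which 243 had 1 region, 27 had 2 and 1 had more.

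Genes with the same exon sequence, but for 1 base in F02D10.t3, differed widely in signal. Of the 7 leucine genes with an intron, C04A11.t1 had a signal of 62.5 and C14B9.t2 had 42.8, with ranks 702 in replicate 1 and 78 in replicate 2. ZK822.t1 followed with 20.3 (ranks 581 and 13903). F02D10.t3, F42F12.t1 and B0285.t1 had 10.1, 10.1 and 10.03, each with a candidate in only 1 replicate. F22B7.t1 had no pooled candidate and ranked 25963 in replicate 1. The first 2 were peaks, while 3 lay under the 10.4 that is the median of all candidates. The 3 isoleucine genes with an intron ranged likewise: F57F5.t1 had 53.6, C02B4.t1 had 22.6 with rank 287 in replicate 1 and no candidate in replicate 2, and K11C4.t1 had 9.35, with its summit 237 bp away and no candidate in replicate 1. Of the 19 tyrosine genes, all with an intron, 7 had a candidate and none a peak, with 25.2 at R11.t1 the largest signal. In all, 16 of 29 genes with an intron had a candidate (55.2%, 35.7 to 73.6) and 3 a peak, against 280 of 583 without one (48.0%, 43.9 to 52.2) and 23.

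Identical copies of a whole gene showed the same spread, although reads from identical copies may not be placed with certainty; how the authors placed them is not given in the sources used here. Of the 11 histidine copies, 4 had a candidate, with signals from 9.77 up to the 54.1 of C06G1.t1. Of the 24 proline copies, 13 had one (7.82 to 34.9), and of the 15 copies of the commoner alanine sequence 9 (7.94 to 34.2, median 20.4). That 34.2 belonged to the region F15G9.t2 shared with F15G9.t1, an alanine gene of another sequence that lay nearer the summit. Among regions nearest to a copy of the commoner sequence, the largest signal was 23.3, at F34H10.t1. Of 11 identical serine copies only 2 had a candidate (22.2 and 25.3). The 10 identical arginine copies, all on X, included 6 with a candidate and no peak (10.6 to 19.3). The 29 glycine copies, the largest set, included 12 with a candidate, none a peak.

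**Figure D4:**
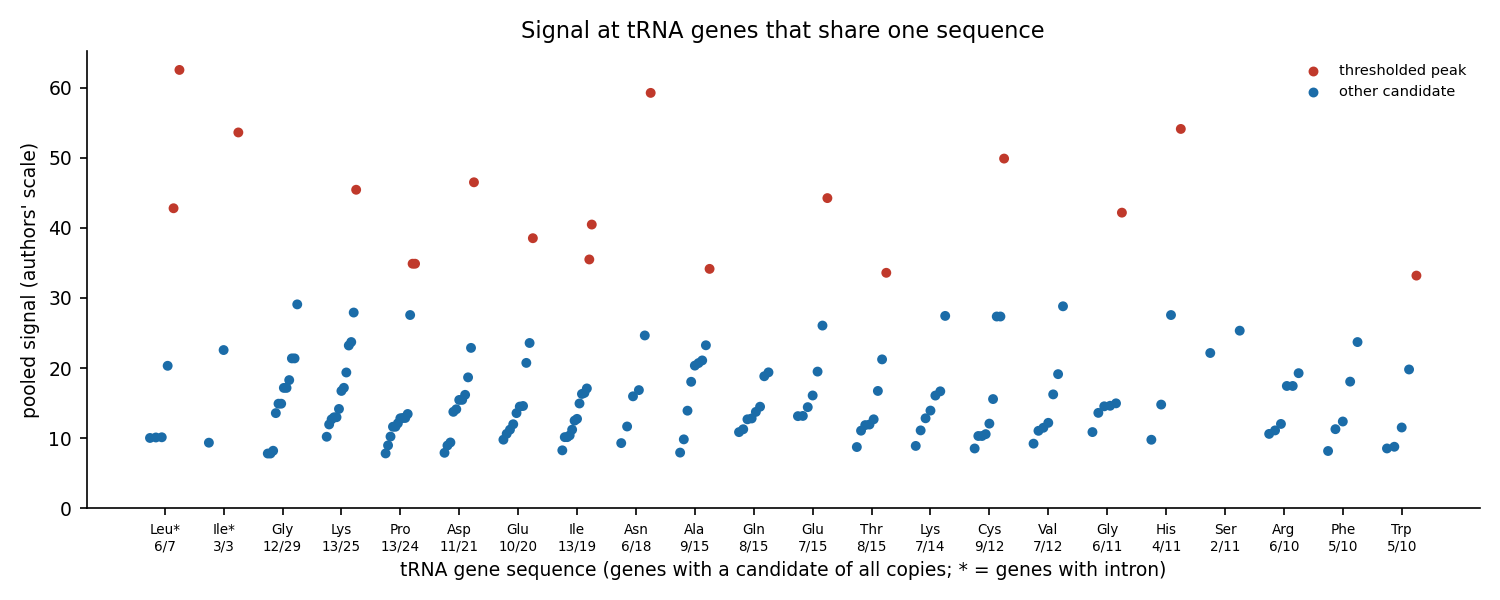
Pooled signal (vertical axis, the authors' scale) at tRNA genes that share a sequence, 1 column for each sequence with at least 10 copies, labelled by isotype with the number of genes with a candidate of all copies. The first 2 columns, marked with a star, are the leucine and isoleucine genes with an intron, whose exons alone are shared, but for 1 base in F02D10.t3. Each point is 1 gene, red for a thresholded peak, and the leucine points ran from 10.03 to 62.5. Adjacent genes can share 1 region and then have the same value.

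Shares by copy number of the tRNA sequence had overlapping intervals. A candidate lay at 61 of 143 genes with a sequence of their own (42.7%, 34.4 to 51.2) and at 110 of 216 with 15 or more copies (50.9%, 44.1 to 57.8), with 2 to 4, 5 to 9 and 10 to 14 copies at 43.3%, 52.9% and 50.5%. Peaks were at 4 genes with 1 copy (2.80%, 0.767 to 7.01) and 11 with 15 or more (5.09%, 2.57 to 8.93). Of those 11 genes, 10 were on X. Adjacent genes can share 1 region. Counted by the gene nearest the summit, 4 peaks lay at genes with 1 copy and 9 at genes with 15 or more. Median signal of the best candidate was 12.95 at single-copy genes and 14.5 at genes with 15 or more copies.

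In the pooled list the share of genes with a candidate was smallest among tRNA genes with 2 or 3 near neighbours. With no other tRNA gene within 5 kb, 147 of 287 genes had a candidate (51.2%, 45.3 to 57.1), and with 1 other 96 of 175 (54.9%, 47.2 to 62.4). With 2 or 3 others it was 41 of 121 (33.9%, 25.5 to 43.0), an interval below that of both. Within 50 bp the shares were 36.9%, 31.4% and 16.5%, in the same order of classes. The 29 genes with 4 or more others, all on X, had a candidate in 12 cases (41.4%, 23.5 to 61.1) and within 50 bp in 4 (13.8%). Genes with a peak numbered 18, 7, 1 and 0 from the least to the most clustered class. Counted by the gene nearest the summit, peaks numbered 18, 5, 1 and 0, since adjacent genes can share 1 region. In replicate 1 the shares with a candidate were 45.6%, 49.7%, 38.0% and 27.6%, and in replicate 2 42.5%, 48.6%, 37.2% and 24.1%. Shares at 2 or more neighbours were thus lower in both replicates too, by less than in the pooled list at 2 or 3. No intervals were taken for the shares of single replicates. With 4 or more others, 7 of 10 genes in introns and 5 of 19 intergenic genes had a pooled candidate. Within the class of 2 or 3 others, X had 37.1% and the autosomes 30.5%.

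Chromosome X held 128 of the 300 regions (42.7%, 37.0 to 48.5) but 18.9% of all candidates. It also held 276 of the 612 nuclear tRNA genes. Taken per gene, a candidate lay at 139 of 276 genes on X (50.4%, 44.3 to 56.4) and at 157 of 336 on autosomes (46.7%, 41.3 to 52.2), intervals that overlap. Peaks were at 16 genes on X (5.80%, 3.35 to 9.24) and at 10 on autosomes (2.98%, 1.44 to 5.41), intervals that also overlap. Counted as regions, the peaks numbered 14 on X and 10 on autosomes, since adjacent genes can share 1 region. Median signal of the regions was 14.01 on X and 12.9 on autosomes. Among genes with no other within 5 kb, a candidate lay within 50 bp of 47.4% of the 97 on X and of 31.6% of the 190 on autosomes. With 1 other it was 30.7% on X and 32.2% on autosomes, with 2 or 3 others 16.1% and 16.9%, and over all genes 31.5% and 29.2%, so X was not higher throughout.

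Shares at tRNA genes in introns and between genes had overlapping intervals. A candidate lay at 145 of the 283 tRNA genes in an intron of a protein-coding gene (51.2%, 45.3 to 57.2) and at 147 of the 319 intergenic ones (46.1%, 40.5 to 51.7), and 15 and 10 had a peak. Counted by the gene nearest the summit, the peaks numbered 14 and 9. Inside introns, tRNA genes on the host's strand had a candidate in 80 of 161 cases (49.7%) and those on the opposite strand in 65 of 122 (53.3%). In replicate 1 the order was the reverse of the pooled one, with 43.5% in introns and 45.8% between genes, and in replicate 2 the shares were 42.0% and 42.3%. Another 10 tRNA genes overlap an exon, and 4 of them had a candidate.

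**Figure D5:**
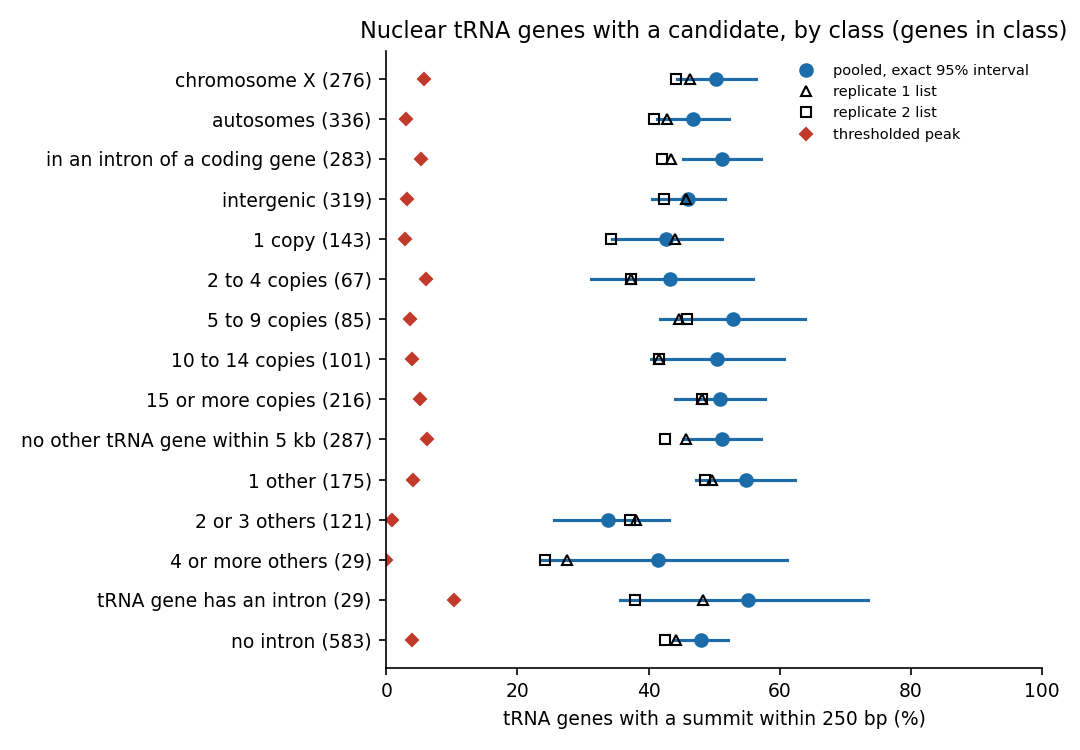
Share of nuclear tRNA genes with a summit within 250 bp (horizontal axis, percent) by class, with the number of genes in brackets. Blue points and bars are the pooled share and its exact 95% interval, triangles and squares the lists of replicate 1 and replicate 2, and red diamonds the share with a thresholded peak. Genes with 2 or 3 others within 5 kb had 33.9% in the pooled list, against 51.2% for isolated genes.

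By isotype, leucine genes had a candidate in 25 of 39 cases (64.1%, 47.2 to 78.8) and isoleucine genes in 18 of 29 (62.1%, 42.3 to 79.3), with 4 and 3 peaks. Histidine genes had one in 6 of 20 (30.0%, 11.9 to 54.3) and serine genes in 14 of 39 (35.9%, 21.2 to 52.8). No peak lay at the genes of methionine (20), which also supply the initiator tRNA, valine (31), serine (39), tyrosine (19) or phenylalanine (14), nor at the 1 selenocysteine gene, whose candidate had a signal of 14.01. Valine's largest signal was 28.8 and that of methionine 30.3, just under the peaks. Each interval given here for an isotype includes the 48.4% of all genes, of 21 isotypes in all.

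Letters of the internal promoter were found at tRNA genes with and without a candidate in shares whose intervals overlap. The A box letters were found in 254 of 296 genes with a candidate (85.8%, 81.3 to 89.6) and 257 of 316 without (81.3%, 76.6 to 85.5), and in 24 of the 26 with a peak. The B box letters were in 246 with a candidate (83.1%, 78.3 to 87.2) and 274 without (86.7%, 82.5 to 90.3), and in 23 with a peak. A run TTTT lay within 25 bp after the gene in 295 with a candidate and 309 without. In windows of 73 bp around the summit, searched on both strands, the A box letters were in 150 of 300 at tRNA genes and in 35.9% of all candidates. The B box letters were in 21.3% at tRNA genes and in 3.78% of all candidates. Among all nuclear tRNA genes, 83.5% held the A box letters and 85.0% the B box letters. Larger shares in windows chosen for lying at these genes are therefore partly built in. The letters CTGCGTCT, searched on both strands within 100 bp of the summit, were in 1 of the 24 peaks at tRNA genes (C37A2.t1) and 11 of the 300 regions (3.67%, 1.84 to 6.47), against 2.39% of all candidates and 12.9% of all peaks.

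A protein-coding start was seldom close to the regions at tRNA genes. It lay within 250 bp of 19 of the 300 summits (6.33%), against 12.8% of all candidates, and of 1 of the 24 peaks (4.17%), that at C28G1.t1, against 34.5% of all peaks. Median distance to a coding start was 1817 bp at tRNA genes and 1453 bp over all candidates. The GC content of the 201 bp around the summit had a median of 43.3% at tRNA genes, against 37.8% over all candidates, and its part in the signal was not tested. Of the 300 regions, 1 lay within 250 bp of a small RNA gene of another class.

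Set beside the 24 peaks among 300 regions at tRNA genes (8.0%, 5.19 to 11.7), the same rule gave 20 of 160 at small nucleolar RNA genes (12.5%, 7.81 to 18.6) and 7 of 57 at small nuclear RNA genes (12.3%, 5.08 to 23.7). At microRNA genes it was 4 of 86 (4.65%, 1.28 to 11.5). These intervals overlap, so the classes were not told apart. Among other templates of RNA polymerase III, rpr-1, the RNA of the ribonuclease P that trims tRNA 5′ ends, had a signal of 82.4 and ranked 7 in replicate 1 and 9 in replicate 2. The related RNA gene mrpr-1 had 21.7, with ranks 451 and 1769. The 5S ribosomal RNA genes and yrn-1, a Y RNA gene, had no candidate.

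Genes listed by symbol for making and charging tRNAs were looked up by a start window from 1000 bp upstream to 200 bp downstream. Of 16 genes of RNA polymerase III and its factors, 6 had a candidate and none a peak: rpac-19, a subunit shared with RNA polymerase I, had 28.4, brf-1, a TFIIIB subunit, had 11.1, and rpc-1, the largest subunit, had 10.6. Of 30 genes listed under tRNA processing and modification, 13 had a candidate, and rpr-1 alone a peak. That list was broad and also took in adr-1, adr-2, xpo-1, xpo-2 and mrpr-1. Of 31 aminoacyl-tRNA synthetase genes, 11 had a candidate and 1 a peak, ears-2 (76.7), a glutamyl-tRNA synthetase. Of the 75 protein-coding genes on the list, 28 had a candidate (37.3%), near the 35.7% of all protein-coding genes. Of these 28, 1 had a peak (3.57%), near the 2.65% of all protein-coding genes with a candidate. The median signal at the 28 was 11.8, against 11.1 for all protein-coding genes with a candidate.

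Neither the control nor a library without the tagged receptor was analysed here, so signal of the receptor and signal that any immunoprecipitation would give at tRNA genes cannot be told apart.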

How the data were processed

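Per the files that describe the deposited lists, the authors called candidate regions on each replicate and on the pooled replicates against a control, and thresholded them by irreproducible discovery rate. Aligner, peak caller, versions, threshold and treatment of repeated reads are not given in the sources used here. Deposited by the authors were a signal and a −log10 q value for each region; only the signal was used, for ranks within a list, since q values are capped. The ce11 lists were used, with 0 per-sample columns unmapped. The depth is unknown.

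Gene biotypes came from Ensembl release 115 and isotypes and sequence from RefSeq, both for WBcel235; all 612 nuclear tRNA genes had the same coordinates in both, and 607 had an isotype. Coordinates are 1-based. Regions overlap from 1 bp. Copies are annotated tRNA genes of identical sequence (200 distinct sequences), and neighbours are other tRNA genes within 5 kb. A gene's signal is that of its best region within 250 bp, so adjacent genes can share 1 region. Code ran in Python 3.11.15 with numpy 2.4.6, pandas 2.3.3 and SciPy 1.17.1, and was tested on simulated regions.

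The members, classes and lists were chosen with earlier results of these data known. Named genes are those nearest the 20 regions with the largest signal, the 10 with the best worse rank over both replicates, those nearest the distance limit, the top 3 of each class, and any with a peak; other names were chosen after their values were seen. The letters CTGCGTCT and the intron-containing sets were added after seeing the data. No test was run, since 1 group of 2 samples allows none.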

Additional observations from a re-analysis of the deposited data

How the results depend on the processing

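Of 48 alternatives to 10 results, 32 stayed within the exact interval of the main value. No paired analysis was possible because the 2 samples form 1 group. The share of regions that overlap a peak (9.67%) was 5.0% with the stronger 50% of the peaks and 6.05% within 1000 bp of a tRNA gene. It was 8.0% when the region itself had to be a peak (chosen after seeing the data). With either replicate left out, regions of the other replicate's list were set against that list's own top set, which gave 9.65% to 9.78%. Thresholded peaks did not enter those values. The share in the top 10% by signal (36.3%) was 46.2% within 50 bp, 44.2% within 100 bp, 25.98% within 1000 bp, and 30.5% to 33.7% with either replicate left out. Matching by summits within 100 bp gave 31.3% of regions with a candidate of both replicates and 6.33% within the best 1000 of both, against 55.7% and 9.67%. An overlap of 50% of the shorter region gave 44.7% for the first. Shares over all candidates were not taken under these matching rules, nor for the stronger 50% of the peaks. The 32.9% and 1.1% of all candidates, from overlap of 1 bp, are therefore no background for these values. With either replicate left out, 22.0% to 23.2% of summits lay inside the gene, against 29.3%, 47.1% to 48.6% lay at genes in introns, against 50.7%, and 44.4% to 45.3% on X, against 42.7%. The share of regions in introns was 27.7% on the host's strand and 23.0% on the other, parts of the 50.7% by construction. Without either replicate, 42.5% to 45.6% of isolated genes (51.2%) and 34.3% to 44.1% of single-copy genes (42.7%) had a candidate. With 1 mismatch allowed, 100% of genes with a candidate held the B box letters, as did 99.7% of those without. Except where construction shows it, the cause was not tested. Copies by anticodon were not run, since the annotation used gives isotypes only. Unknown depth limits what a missing candidate means.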
